A study of Mus musculus with 2 samples.

Results

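The genes described here encode the degradative machinery of the lysosome in RAW264.7 cells, an established mouse macrophage line: 51 genes for proteases, glycosidases, lipid hydrolases, soluble cofactors, membrane proteins, vacuolar ATPase subunits and the MiT/TFE transcription factors. They were chosen by symbol, all 51 were found among the 52550 gene identifiers of the count files, and all 51 were among the 11673 genes that passed the filter on low counts. Purified, untreated cells gave 1 library from 2D culture and 1 from 3D culture, of polyadenylated RNA, with 14371084 and 16652503 counts. The comparison asks how transcript levels differ between the culture methods, and no further description of the 3D culture or of the age of the cultures was used here. With 1 library per culture method no difference has a replicate check, no test across samples was possible and no p-value is given.

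Lysosomes are acidic compartments in which macrophages break down engulfed particles, membrane and extracellular matrix. Acid hydrolases travel there from the secretory pathway, largely through mannose 6-phosphate receptors, while the vacuolar ATPase (V-ATPase) pumps protons inward to keep the interior acidic. The factors TFEB, TFE3 and MITF enter the nucleus when nutrient signalling at the lysosome drops, and there they bind a promoter sequence, the CLEAR element, that is shared by many lysosomal genes.

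Values below are counts per 1000000 (CPM) after scaling by the trimmed mean of M values (TMM), a factor that sets most genes near equal. Ratios divide the 3D value by the 2D value and carry exact 95% intervals that cover counting error only and treat reads as independent, although reads that lack molecular identifiers need not be. A gene was called higher or lower where its ratio reached 2 in either direction. Positions are those of mm10 (GRCm38).

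Most of the lysosomal genes had higher scaled levels in 3D culture. The call of higher was reached by 21 of the 51 genes (41.2%) and that of lower by 2, against 18.7% of all measured genes called higher and 20.8% called lower. The ratio was above 1 for 43 of the 51, and their median log2 ratio was 0.91, against 0.05 over all measured genes. The 22 reference genes, a list of housekeeping genes, had 8 higher (36.4%) and 2 lower, 17 ratios above 1 and a median of 0.56 (-0.04 under total counts), so a raised median under TMM scaling was not limited to lysosomal genes. At a threshold of 1.5-fold 33 were higher and 2 lower, against 31.7% and 30.4% of all genes, and at 4-fold 1 was higher and 0 lower, against 2.23% and 6.67%. Together they made up 1.91% of counts from 2D culture (95% interval by Wilson's method 1.90% to 1.91%) and 2.69% from 3D culture (2.68% to 2.69%). In bulk RNA, a change in the share of cells that express a gene and a change per cell cannot be told apart.

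The scaling set how many calls were made. Scaled to total counts, each log2 ratio fell by 0.60, and the split of higher to lower calls went from 21 and 2 to 6 and 2, against 5.59% and 36.5% of all genes. Scaled to 22 reference genes it was also 6 and 2, against 6.2% and 35.3%. The 6 genes that stayed at least 2-fold higher under total counts were Ctsd, Ctsa, Ctsz, Cd68, Atp6v0b and Atp6v0d1. By role, total counts left 3 proteases, 2 V0 genes and 1 membrane protein, and 0 glycosidases, lipid hydrolases, cofactors, V1 genes or MiT/TFE genes. The all-gene median lay 0.85 log2 units under the median of the 51, a distance that a scaling factor cannot change except through the genes that pass the filter.

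**Figure D1:**
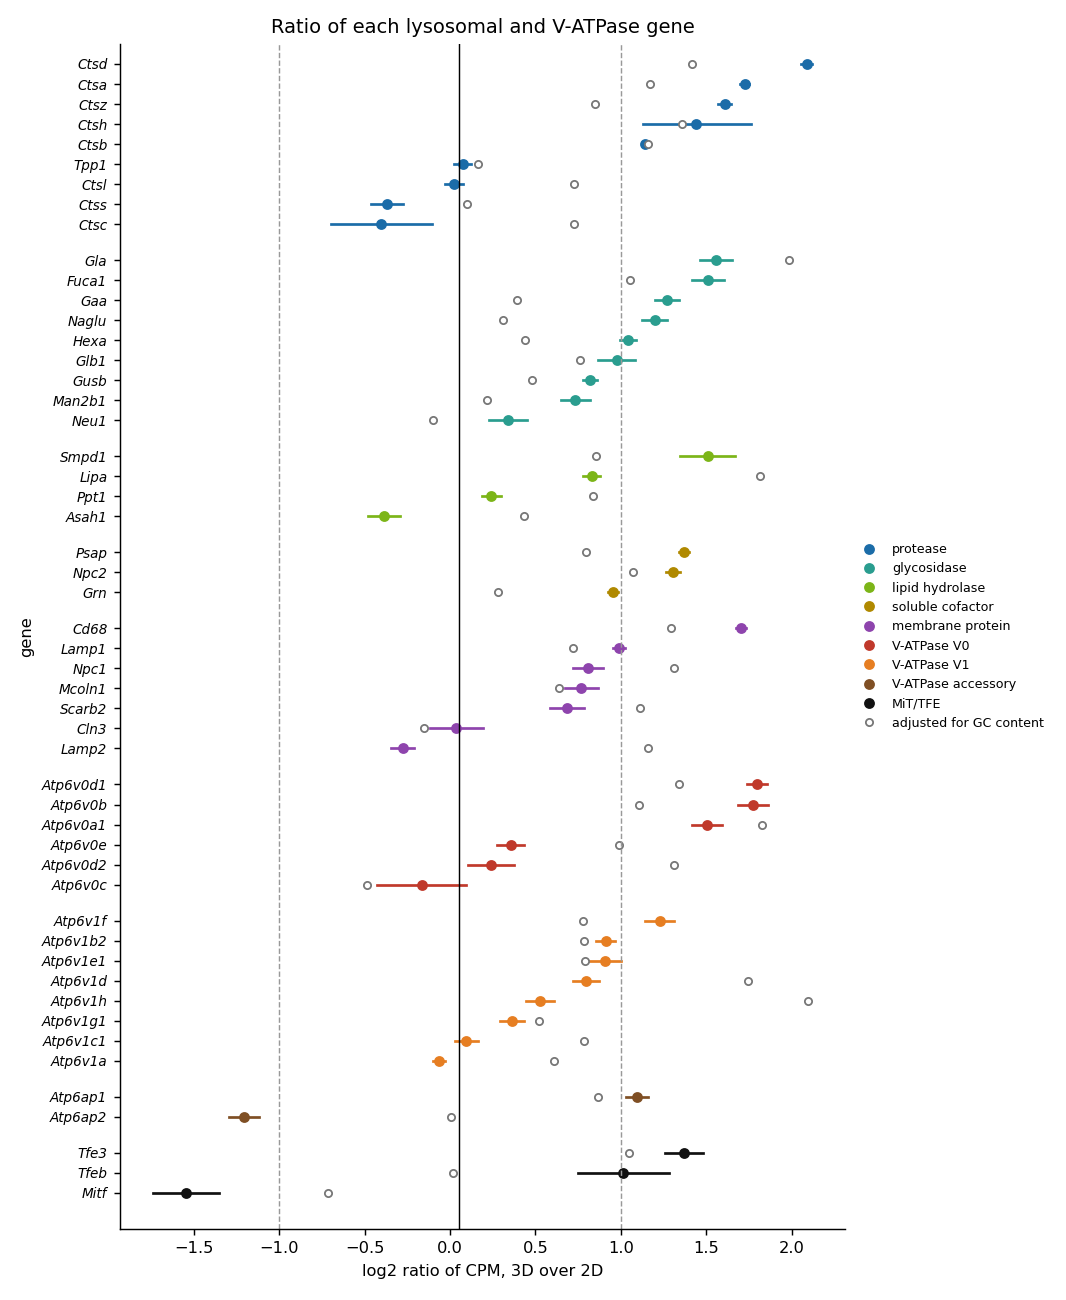
Log2 ratio of CPM, 3D over 2D, for each of the 51 genes by role; filled points are the ratios, bars are 95% counting intervals and open points are values adjusted for GC content. The solid line is the median of all measured genes (0.05) and dashed lines mark 2-fold; Ctsd lies highest at 2.09 and Mitf lowest at -1.54.

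Cathepsins are the main lysosomal proteases, and 5 of the 9 protease genes were at least 2-fold higher in 3D culture while 0 were lower. The shares over all measured genes were 18.7% and 20.8%. Ctsd, the aspartic protease cathepsin D (ENSMUSG00000007891, chromosome 7, 142375911 to 142388038, minus strand), stood at 563 CPM in 2D culture and 2394 CPM in 3D culture. Its ratio of 4.25 (4.16 to 4.35) was the highest of the 51 genes. Ctsb, a cysteine protease, stood at 3016 CPM in 2D culture and 6648 in 3D culture, a ratio of 2.20 (2.18 to 2.23). Ctsa, a serine carboxypeptidase that also protects neuraminidase and beta-galactosidase, stood at 878 and 2906 CPM, a ratio of 3.31 (3.25 to 3.37). Ctsz, a carboxypeptidase, stood at 517 and 1577 CPM, a ratio of 3.05 (2.97 to 3.12). These 4 genes had high counts and narrow intervals, all above 2. Ctsh, an aminopeptidase, rested on only 125 and 260 counts and had a ratio of 2.72 with a wider interval (2.19 to 3.39).

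Before adjustment for GC content the other 4 proteases did not share this difference. Ctsl, a cysteine protease involved in matrix and antigen breakdown, stood at 364 and 371 CPM (ratio 1.02, 0.98 to 1.06). Tpp1, a tripeptidyl peptidase whose loss causes a neuronal ceroid lipofuscinosis, stood at 379 and 399 CPM (ratio 1.05, 1.02 to 1.09). Both were thus nearly equal in the libraries. Ctss, the cathepsin that trims the invariant chain of MHC class II, was 1.29-fold lower in 3D culture (1.21 to 1.38), at 144 and 112 CPM. Ctsc, which activates granule serine proteases, was 1.32-fold lower (1.08 to 1.62), with only 264 and 153 counts. Under total counts the ratios of Ctsl and Tpp1 also lay below 1. After adjustment for GC content all 9 protease log2 ratios lay above 0. They were 0.73 for both Ctsl and Ctsc, 0.16 for Tpp1 and 0.10 for Ctss. Ctsz, called higher before adjustment, then stood at 0.85. The strand option of the counting is not given in the sources used, so exons shared with other genes matter. Gm49369 shares 34.4% of the Ctsd exon bases and the antisense gene Gm47123 26.8% of those of Ctsl, both with 0 counts. Fdft1 on the opposite strand, with 1602 and 3631 counts, shares 12.8% of those of Ctsb. Of the Ctsa exon bases, Pltp (16 and 33 counts) shares 10.5% and Neurl2 (114 and 490 counts) 6.87%, both on the opposite strand.

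The balance between proteases does not depend on the scaling, because it compares genes inside 1 library. Per length, in transcripts per 1000000 (TPM, over all annotated exon bases of a gene), Ctsd stood 2.26-fold above Ctss in 2D culture and 12.4-fold above it in 3D culture. That is a 5.49-fold change in balance (exact interval 5.13 to 5.88). The transcripts differ in GC content, 55.9% for Ctsd and 46.0% for Ctss, and after adjustment for GC content the difference of their log2 ratios was 1.32.

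Glycosidases remove sugars from glycogen, glycolipids and glycosaminoglycans, and inherited loss of most of them causes a storage disease. Of 9 genes, 5 were at least 2-fold higher in 3D culture and 0 lower, against 18.7% and 20.8% of all measured genes. All 9 ratios lay above 1. Under total counts and under reference gene scaling 0 of the 9 reached 2-fold, with 8 of 9 ratios above 1. After adjustment for GC content 2 were at least 2-fold higher, against 13% of all genes. Gla, alpha-galactosidase A (Fabry disease), stood at 75.3 and 222 CPM, a ratio of 2.95 (2.76 to 3.15). Fuca1, alpha-fucosidase, stood at 76.1 and 217 CPM, a ratio of 2.85 (2.67 to 3.05). Gaa, the acid alpha-glucosidase that digests glycogen (Pompe disease), stood at 136 and 328 CPM, a ratio of 2.41 (2.29 to 2.53). Those 3 enzymes act on different substrates, and each had its interval above 2.

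Naglu, which removes N-acetylglucosamine from heparan sulfate, had a ratio of 2.29 (2.18 to 2.41), at 141 and 323 CPM. Hexa, the alpha chain of beta-hexosaminidase (Tay-Sachs disease), passed narrowly at 2.06 (1.99 to 2.12), with 359 and 738 CPM. Glb1, beta-galactosidase, lay just under the threshold at 1.97 (1.83 to 2.12), with 66.9 and 132 CPM. Gusb, beta-glucuronidase, stood at 461 and 813 CPM (ratio 1.76). Man2b1, alpha-mannosidase, stood at 107 and 178 CPM (ratio 1.66). Neu1, the sialidase held in a complex by Ctsa protein, had the lowest ratio of this set at 1.27 (1.17 to 1.37), with 77.9 and 98.6 CPM.

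The 4 lipid hydrolase genes differed among themselves. Smpd1, acid sphingomyelinase (Niemann-Pick disease types A and B), stood at 26.5 and 75.3 CPM, a ratio of 2.85 (2.55 to 3.18). Asah1, acid ceramidase, which acts on the ceramide that sphingomyelinase releases, went the other way, at 143 and 110 CPM, 1.31-fold lower in 3D culture (1.22 to 1.39). Lipa, the acid lipase that frees cholesterol and fatty acids from lipoproteins, stood at 303 and 539 CPM (ratio 1.78, 1.72 to 1.84). Ppt1, which removes palmitate from proteins, stood at 319 and 378 CPM (ratio 1.18). Within the libraries Smpd1 rested at 0.188 of the Asah1 level per length in 2D and at 0.697 in 3D, a 3.72-fold change in balance (3.27 to 4.23). The log2 difference of this pair was 0.42 after adjustment for GC content, which is 55.7% for Smpd1 and 43.5% for Asah1.

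All 3 cofactor genes had ratios above 1 under TMM scaling and under total counts. Psap, whose product is cut into the saposins that present lipids to hydrolases, stood at 817 and 2108 CPM, a ratio of 2.58 (2.53 to 2.63). Npc2, which hands cholesterol to the membrane protein NPC1, stood at 408 and 1008 CPM, a ratio of 2.47 (2.40 to 2.54). Grn, progranulin, which binds prosaposin on its way to the lysosome, lay just under 2-fold at 1.94 (1.90 to 1.98), with 919 and 1782 CPM.

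Of 7 genes for lysosomal membrane proteins, 1 (14.3%) was at least 2-fold higher, against 18.7% of all measured genes. Cd68, a heavily glycosylated protein of macrophage lysosomes, stood at 864 and 2817 CPM, a ratio of 3.26 (3.20 to 3.32), and had the highest level per length of the 51 genes in both libraries (2764 and 5160.5 TPM). Lamp1 and Lamp2 encode the most abundant lysosomal membrane glycoproteins, and they differed. Lamp1 stood at 679 and 1347 CPM, a ratio of 1.98 (1.94 to 2.03), whereas Lamp2 stood at 269 and 222 CPM, 1.21-fold lower in 3D culture (1.16 to 1.27). Their balance per length went from 9.0 to 21.6. The pair also differed in GC content (51.6% and 38.7%), and after adjustment for it Lamp2 lay 0.44 log2 units above Lamp1.

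The ion channel and transporter genes lay between. Npc1, the cholesterol exporter, stood at 99.9 and 175 CPM (ratio 1.75). Mcoln1, the calcium channel that triggers dephosphorylation of TFEB, stood at 85.1 and 145 CPM (ratio 1.70). Scarb2, the carrier of glucocerebrosidase, stood at 81.4 and 131 CPM (ratio 1.61). Cln3, lost in juvenile neuronal ceroid lipofuscinosis, was nearly equal at 44.1 and 45.2 CPM (ratio 1.03, 0.92 to 1.14).

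**Figure D2:**
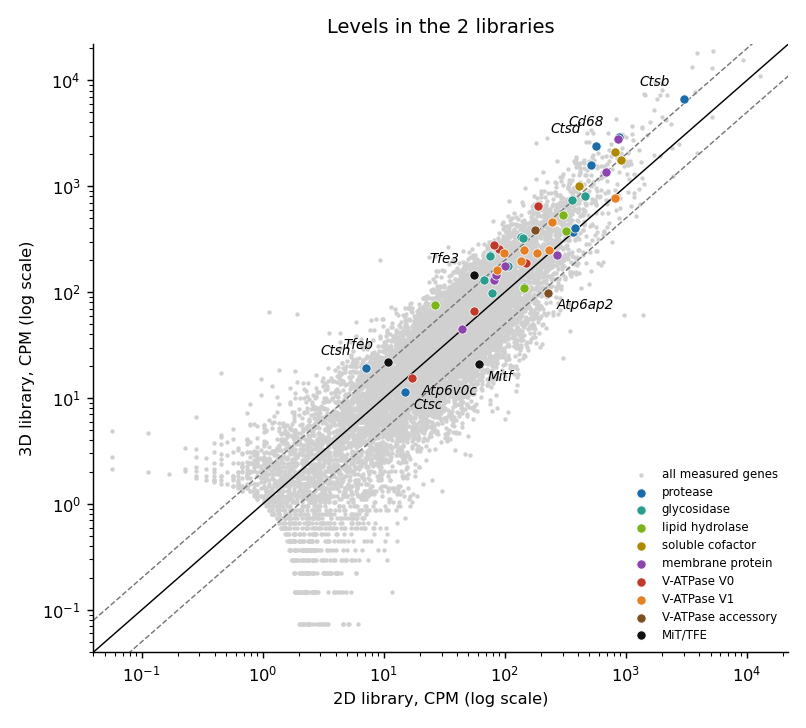
CPM in 2D culture against CPM in 3D culture on log axes, with all measured genes in grey (9 genes at 0 in 1 library cannot be drawn) and the 51 genes coloured by role. The solid line marks equality and dashed lines 2-fold; Ctsb stands at the top with 3016 and 6648 CPM, and Mitf and Atp6ap2 are the 2 coloured genes below the lower dashed line.

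The V-ATPase pump has a membrane-bound V0 part, through which protons pass, and a cytosolic V1 part, which splits ATP. Of its 16 genes, 5 were called higher (31.25%) and 1 lower (6.25%), against 18.7% and 20.8% of all measured genes. The median log2 ratio of the 16 was 0.66, and that median was 0.06 under total counts. The share of counts held by these 16 genes was 0.360% in 2D culture and 0.366% in 3D culture. The hydrolases and cofactors, 25 genes, had 13 higher (52%) and 0 lower, with a median of 1.04. The order of the medians turned with adjustment. For GC content the median was 0.83 for the V-ATPase, with 6 of 16 higher (37.5%). It was 0.76 for hydrolases and cofactors, with 8 of 25 higher (32%), against 13% of all genes. With exon length and expression also removed the medians were 0.30 and 0.07. The difference between these sets was not tested.

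In V0, Atp6v0d1 encodes the stalk subunit found in most tissues. It stood at 189 and 656 CPM, a ratio of 3.47 (3.34 to 3.61). Atp6v0b, part of the proteolipid ring, stood at 81.8 and 279 CPM, a ratio of 3.42 (3.22 to 3.63). Atp6v0a1, an isoform of the large subunit that forms the proton half-channels, stood at 89.6 and 254 CPM, a ratio of 2.84 (2.67 to 3.01). The remaining V0 genes were closer to equal. Atp6v0e stood at 149 and 190 CPM (ratio 1.28). Atp6v0d2, the stalk isoform known for its role in osteoclasts, stood at 55.8 and 65.9 CPM (ratio 1.18, 1.08 to 1.29). Per length, Atp6v0d1 stood 5.13-fold above Atp6v0d2 in 2D culture and 15.1-fold above it in 3D culture, a 2.94-fold change in balance (2.66 to 3.25). Atp6v0d1 has a GC content of 53.4% and Atp6v0d2 of 41.6%, and after adjustment for GC content their log2 ratios differed by 0.03.

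The proteolipid gene Atp6v0c may have reads counted under another gene, so its own row need not give its full level. It has a near-identical processed copy, Atp6v0c-ps2, on chromosome 6 (37806086 to 37806550, plus strand), while the gene lies on chromosome 17 (24163866 to 24169702, minus strand). Over the 465 bases of the copy, which align with the start codon of the gene's transcript, 1 base differs, T111C, with the gene's base first and positions counted from the first base of the copy. The stretch around that base, positions 81 to 140, is shown because it is the only place where a read could tell the 2 loci apart within the copy, and the capital marks the base that differs.
Atp6v0c: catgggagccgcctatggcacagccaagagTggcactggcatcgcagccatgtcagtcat
Atp6v0c-ps2: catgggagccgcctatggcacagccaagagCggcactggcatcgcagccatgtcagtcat
The row of the gene held 305 counts in 2D culture and 208 in 3D culture, a ratio of 0.89 (0.74 to 1.07). The row of the copy held 3897 and 9001 counts, a ratio of 3.02 (2.91 to 3.14). The copy thus took 92.7% of the summed counts in 2D culture and 97.7% in 3D culture. The gene's transcript has 1183 bases, and reads from outside the 465 shared bases can be told from this copy. How reads of the shared part were divided between the rows was not tested. Summed, a step chosen after seeing the data, the 2 rows stood at 238 and 681 CPM, a ratio of 2.86 (2.76 to 2.97). That was near the ratio of Atp6v0a1 (2.84) and below those of Atp6v0b (3.42) and Atp6v0d1 (3.47). With the sum in place of the gene's own row, 22 of the 51 genes reached 2-fold higher and 2 lower, against 18.7% and 20.8% of all genes. Copies of at least 300 aligned bases and 90% identity also exist for Atp6v1g1, Atp6ap2, Ctsl and Ctsh, but their rows held at most 9 counts in either library.

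In V1, 1 of 8 genes (12.5%) was at least 2-fold higher, against 18.7% of all measured genes. Atp6v1f stood at 99.1 and 232 CPM, a ratio of 2.34 (2.21 to 2.48). The catalytic subunit gene Atp6v1a was nearly equal, at 809 and 775 CPM (ratio 0.96, 0.93 to 0.98). Atp6v1b2, the B subunit that pairs with it in the catalytic ring, stood at 244 and 459 CPM (ratio 1.88, 1.81 to 1.96). After adjustment for GC content the log2 ratios of these partner subunits were close, 0.61 for Atp6v1a and 0.78 for Atp6v1b2.

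Of the V1 stalk and regulatory subunits, Atp6v1e1 stood at 85.9 and 161 CPM (ratio 1.87, 1.75 to 2.00) and Atp6v1d, part of the central rotor, at 144 and 250 CPM (ratio 1.74, 1.65 to 1.83). Atp6v1h, needed for coupling of the pump, stood at 137 and 197 CPM (ratio 1.44). Atp6v1g1 stood at 183 and 236 CPM (ratio 1.29), and Atp6v1c1, which links V1 to V0, at 233 and 249 CPM (ratio 1.07). Under total counts 4 of the 8 V1 ratios lay above 1.

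Accessory subunits gave opposite calls. Atp6ap1, which assists assembly of the pump, stood at 179 and 382 CPM, a ratio of 2.13 (2.04 to 2.23). Atp6ap2, the (pro)renin receptor and also an assembly factor, stood at 226 and 98.0 CPM, 2.31-fold lower in 3D culture (2.17 to 2.46). Their balance per length went from 0.686 in 2D culture to 3.37 in 3D culture, a 4.92-fold change (4.56 to 5.31). GC content was 51.2% for Atp6ap1 and 40.5% for Atp6ap2, and adjusted for it their log2 ratios were 0.87 and 0.0038.

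**Figure D3:**
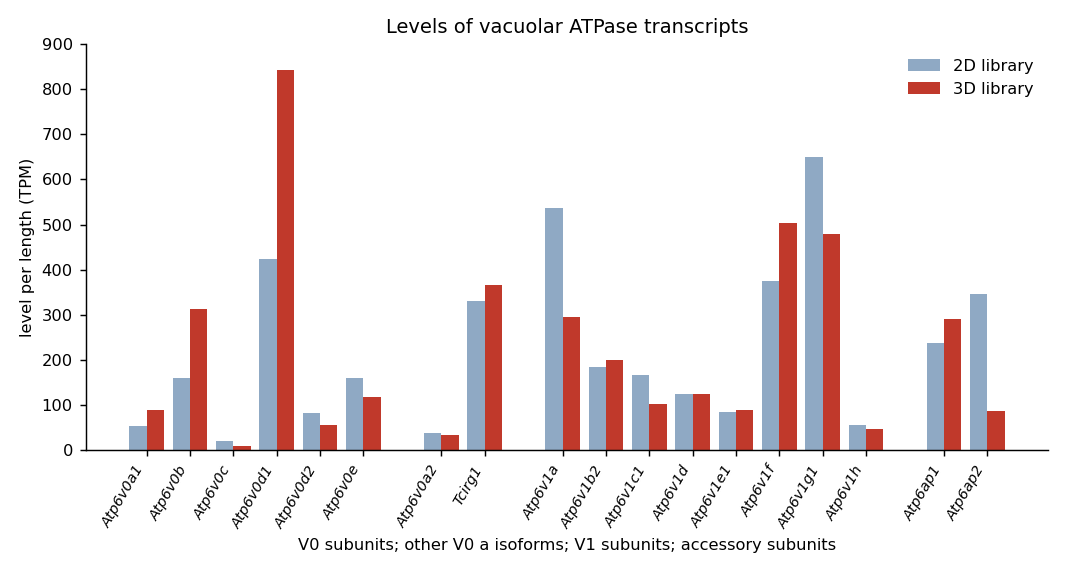
Levels per length (TPM) of vacuolar ATPase genes in the 2D and 3D libraries, including 2 further isoforms of the V0 a subunit; bars are single libraries without error bars. TPM compares genes within 1 library and carries no TMM scaling, so bars of 1 colour are to be compared; Atp6v0d1 is the highest in 3D culture at 843 TPM and Atp6v1g1 in 2D culture at 649 TPM. Atp6v0c is drawn from its own row, without the counts of its copy.

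The 3 MiT/TFE genes differed in direction. Mitf (chromosome 6, 97807052 to 98021349, plus strand), the member best known from melanocytes and osteoclasts, stood at 60.8 CPM in 2D culture and 20.8 in 3D culture. It was 2.92-fold lower in 3D culture (2.56 to 3.34), the lowest ratio of the 51 genes. Tfe3 stood at 55.9 and 144 CPM, a ratio of 2.58 (2.39 to 2.79). Tfeb rested on 193 and 298 counts and stood at 10.9 and 22.0 CPM, with a ratio of 2.02 whose interval (1.68 to 2.43) reaches below 2. Its GC content of 63.2% is high, and adjusted for it the log2 ratio of Tfeb went from 1.01 to 0.02. In the 2D library Mitf was the highest of the 3 per length, at 39.4 TPM, above Tfe3 at 24.2 and Tfeb at 7.74. In the 3D library the order was Tfe3 at 35.9, Tfeb at 8.95 and Mitf at 7.75 TPM.

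The level of Tfe3 per length was thus 0.615 of the Mitf level in 2D culture and 4.64 times it in 3D culture, a 7.54-fold change in balance (6.46 to 8.81). Adjusted for GC content, which is 52.1% for Tfe3 and 43.4% for Mitf, their log2 ratios still differed by 1.76, and by 1.77 when exon length and expression were added. Activity of these factors is set mainly by phosphorylation and nuclear entry, which transcript counts do not measure.

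Promoters were searched for the sequences these factors bind, in RefSeq windows (GRCm38.p6) of 250 bases before to 50 bases after the start of a gene, on both strands. Windows were found for 42 of the 51 genes. The E-box CACGTG occurred in 14 of the 42 (33.3%), against 8.09% of 27025 genes with a window and 12.2% of the 8721 measured ones. Its extension GTCACGTG, which contains the E-box, occurred in 10 of the 42 (23.8%), against 2.55% of all genes and 5.03% of measured genes. The whole palindrome known as the CLEAR element occurred in 1 of the 42, Cln3, against 0.370% of all genes and 0.883% of measured genes. The stretches below are shown because they hold the 8-base extension in genes from several roles, from the highest ratio to a ratio near 1; capitals mark it, as GTCACGTG or as its reverse complement CACGTGAC.
Ctsd: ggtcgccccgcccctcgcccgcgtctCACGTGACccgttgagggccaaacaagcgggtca
Atp6v0b: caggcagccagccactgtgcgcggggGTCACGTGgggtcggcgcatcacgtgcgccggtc
Gla: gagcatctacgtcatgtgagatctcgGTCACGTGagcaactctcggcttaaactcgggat
Naglu: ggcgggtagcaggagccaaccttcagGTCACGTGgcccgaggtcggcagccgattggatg
Mcoln1: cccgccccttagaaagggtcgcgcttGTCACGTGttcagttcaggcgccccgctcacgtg
Cln3: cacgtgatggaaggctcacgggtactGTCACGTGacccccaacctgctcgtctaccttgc
The Ctsd stretch lies at chr7:142387892-142387951 on the minus strand, with the capitals starting 98 bases before the RefSeq start of the gene. For Atp6v0b it is chr4:117887334-117887393 on the minus strand, 38 bases before the start. The Gla stretch is chrX:134601168-134601227 on the minus strand, 196 bases before the start. Naglu has its stretch at chr11:101069993-101070052 on the plus strand, 75 bases before the start. The Mcoln1 stretch is chr8:3500420-3500479 on the plus strand, 73 bases before the start, and the Cln3 stretch is chr7:126583326-126583385 on the minus strand, 123 bases before the start. The other 4 genes with the extension were Ctsa, Glb1, Lamp1 and Atp6v0d1.

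Genes with and without the extension were compared as a description. Of the 10 lysosomal genes that hold it, 6 were called higher, and their median log2 ratio was 1.38. Of the 32 without it, 13 were higher, with a median of 0.82. Over all measured genes the presence of the extension went with no such difference: 15.5% of the genes that hold it and 18% of those that do not were at least 2-fold higher, with medians of 0.02 and 0.06. After adjustment for GC content the lysosomal medians were 0.94 and 0.78. Other motifs were mixed. TCACGTGA, which also contains the E-box, occurred in 8 of the 42, in 1.12% of all genes and in 2.30% of measured genes. Its medians were 1.16 with it and 0.97 without, and 1.08 and 0.77 after adjustment. For the E-box the medians were 1.09 with it and 0.87 without, and 0.74 and 0.79 after adjustment. TCATGTG occurred in 8 of the 42, in 4.31% of all genes and in 2.67% of measured genes, and 2 of 8 genes with it were higher. The medians were 0.46 with it and 1.0 without, and 0.56 and 0.78 after adjustment. A matching sequence does not show that a factor bound there.

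Transcript composition went along with the ratio. Across the 51 genes the log2 ratio correlated with the GC content of the longest transcript at Pearson r = 0.64 (Spearman rho 0.69), and across 11666 measured genes at 0.56 (0.60); genes are not independent replicates and share the same libraries. Of the 29 lysosomal genes with a GC content of at least 50%, 18 (62.1%) were higher and 0 lower, against 33.9% and 6.11% of all measured genes in that range. Of the 22 below 50%, 3 (13.6%) were higher and 2 lower, against 4.74% and 34.2%. The lysosomal genes also had high counts, with a median of 181 CPM over both libraries against 30.6 for all measured genes. Among genes of at least 50 CPM and at least 50% GC, 16 of 25 lysosomal genes (64.0%) and 46.2% of all genes were higher. Below 50% GC at that level, the values were 3 of 20 (15.0%) and 7.65%. These ranges were chosen after seeing the data.

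**Figure D4:**
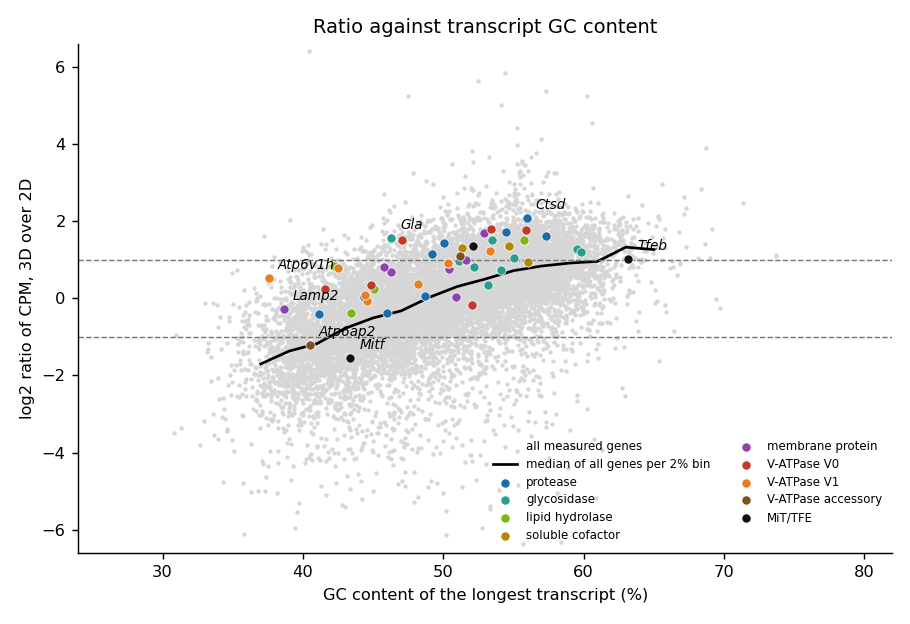
Log2 ratio, 3D over 2D, against GC content of the longest transcript (%), with all measured genes in grey (7 without a GC value are left out), their median per 2% bin as a line and the 51 genes coloured by role. Most coloured points lie above the line; Gla and Atp6v1h lie far above it, and Mitf lies below it.

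Adjustment with splines changed which genes stood out. A spline on GC content took up 32.2% of the variance in log2 ratios of measured genes. With it removed, 19 of the 51 genes reached 2-fold higher and 0 lower, against 13% and 12.5% of all genes, and 47 of 51 lay above 0, against 53.7% of all genes. Of the 21 genes called higher before, 12 stayed at least 2-fold higher and 9 kept the direction below 2-fold: Ctsz, Gaa, Hexa, Naglu, Smpd1, Psap, Atp6v1f, Atp6ap1 and Tfeb. A further 7 passed 2-fold: Lipa, Lamp2, Scarb2, Npc1, Atp6v0d2, Atp6v1d and Atp6v1h. The highest values after this step were 2.10 for Atp6v1h, 1.99 for Gla, 1.82 for Atp6v0a1 and 1.81 for Lipa. Mitf stood at -0.71 and Ctsd at 1.42. Adding exon length alone to this step gave 18 genes higher and 0 lower, against 12.2% and 12.1%. With only GC content removed, 6 of the 22 reference genes (27.3%) were higher and 0 lower, and 20 (90.9%) lay above 0. Their median lay 0.44 above that of all genes, against 0.71 for the 51, so values above 0 were not limited to lysosomal genes.

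When exon length and mean expression were also removed, the splines took up 45% of the variance and little of the group difference remained. Then 7 genes reached 2-fold higher and 0 lower, against 10.5% and 9.8% of all genes, and the median of the 51 genes lay 0.21 above that of all genes. Those 7 were Atp6v1h (1.67), Ctsh (1.63), Atp6v0a1 (1.45), Gla (1.40), Npc1 (1.15), Atp6v1d (1.15) and Lipa (1.14). Ctsd stood at 0.32, Ctsb at 0.13 and Cd68 at -0.11. The median of the 22 reference genes lay 0.19 above that of all genes, with 1 of them higher and 0 lower. Under TMM scaling Gla, Ctsh and Atp6v0a1 were at least 2-fold higher before adjustment and after both adjustments. Scaled to total counts without adjustment, their log2 ratios were 0.96, 0.84 and 0.91, all short of 2-fold. Ctsh rested on 125 and 260 counts. Whether the part of the difference that runs along GC content and expression is technical was not tested, and the adjustment removes both kinds alike.

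Other genes of the pathway, from lists drawn up alongside the 51, gave smaller medians than they did, the inhibitors apart. Of the 16 genes called higher and 8 called lower that are named from these lists by rule, 10 and 5 no longer reached 2-fold after adjustment for GC content. Of 33 measured further lysosomal hydrolases, 10 (30.3%) reached 2-fold higher and 0 lower, against 18.7% and 20.8% of all measured genes. Their median log2 ratio was 0.57. Plbd2, a phospholipase B-like protein, had a ratio of 3.00 (2.83 to 3.18), as had Gm2a, the activator of ganglioside breakdown, at 3.00 (2.78 to 3.24), and the hyaluronidase Hyal2 was at 2.90. Ctsk, the collagen-cleaving cathepsin of osteoclasts, named after its values were seen, exceeded all 51 genes at 9878 TPM in 2D culture and 11827 in 3D culture (ratio 2.09, 2.07 to 2.11). Of 21 further membrane proteins, 6 were higher (28.6%) and 2 lower (9.52%). The metal transporter Slc11a1 had a ratio of 3.68, Laptm5 of 3.41 and the peptide transporter Slc15a3 of 3.31. The peptide transporter Abcb9 was 3.25-fold lower (1.87 to 6.01) on 68 and 16 counts, and Ostm1, the partner of the chloride exchanger ClC-7, was 2.06-fold lower.

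Genes that sort hydrolases were mixed, with 4 of 16 higher (25%) and 0 lower and a median of 0.31. Among all measured genes 18.7% were higher and 20.8% lower. The coat adaptor genes Ap1b1, Gga1 and Ap1s1 had ratios of 2.78, 2.58 and 2.27. Among 12 measured genes for other V-ATPase isoforms and assembly factors, 1 was higher (8.33%), Tm9sf4 at 2.02, and 3 were lower (25%). Dmxl1 and Dmxl2, subunits of the complex that rejoins V1 to V0, were 4.72-fold (4.34 to 5.15) and 2.44-fold lower (2.11 to 2.84), and the neuronal isoform Atp6v1g2 was 2.90-fold lower on 53 and 14 counts. After adjustment for GC content the log2 ratios were -0.76 for Dmxl1 and -0.58 for Dmxl2, both short of 2-fold, and -1.78 for Atp6v1g2. Tcirg1, the V0 a isoform of osteoclasts and macrophage lysosomes, stood 6.04-fold above Atp6v0a1 per length in 2D culture and 4.10-fold above it in 3D culture.

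Of 23 genes that couple nutrients to MiT/TFE factors, 3 were higher and 3 lower (13.0% each), with a median of 0.22. Those shares lay under the 18.7% and 20.8% of all measured genes. Lamtor1, the lysosomal anchor of the Ragulator complex, had a ratio of 2.40, Tsc2 of 2.33 and Rptor, which recruits substrates to mTORC1, of 2.04. The folliculin partners Fnip1 and Fnip2 were 4.15-fold (3.73 to 4.63) and 2.37-fold lower (2.25 to 2.50), and the Rag GTPase gene Rragb was 2.16-fold lower. Adjusted for GC content, Fnip2 stayed lower at -1.22 on the log2 scale, while Fnip1 (-0.65) and Rragb (-0.36) no longer reached 2-fold. Of 4 measured cathepsin inhibitors 3 were higher and 0 lower: Cstb, the cytosolic stefin B, had a ratio of 3.05, secreted cystatin C (Cst3) of 2.93 and Serpinb6a of 2.52.

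The macrophage label was checked against marker genes. Of 12 macrophage markers 11 were measured, among them Csf1r with 495 and 1516 CPM and Spi1 with 130 and 433 CPM. At least 2-fold higher in 3D culture were 6 of the 11, against 18.7% of all measured genes, Cd14 most with a ratio of 4.24. Adgre1 had a ratio of 1.41, and the other 4 went the other way without reaching 2-fold: Cx3cr1 at 0.88, Itgam at 0.73, Fcgr1 at 0.69 and Aif1 at 0.58. The summed counts of the list, which includes Cd68 of the 51 genes, were 58173 and 132205. T cell, fibroblast and epithelial markers had summed counts of at most 22 in either library, with 0 counts for Cd3e, Col3a1 and Krt5, and endothelial markers had 35 and 40. The 8 hepatocyte markers had summed counts of 21 in 2D culture and 318 in 3D culture, against 273984 and 447301 for the 51 lysosomal genes. Only 2 of the 8 were measured, and both were called higher. Alb went from 8 to 232 counts, a ratio of 37.9 (18.9 to 88.8), and Ahsg from 1 to 38, a ratio of 49.7. Apoa2, not measured, went from 11 to 2 counts. Of 10 osteoclast markers, 8 were measured, all 8 ratios lay above 1 under TMM scaling and 5 were higher, with a median log2 ratio of 1.26. Mmp9, a secreted matrix protease, went from 166 to 2731 counts, a ratio of 21.5 (18.4 to 25.3), and the fusion genes Ocstamp and Dcstamp had ratios of 4.24 and 3.00. Nfatc1 had a ratio of 1.11 (1.02 to 1.21), and its log2 ratio was -0.34 after adjustment for GC content. Oscar, not measured, went from 8 to 2 counts. The calcitonin receptor gene Calcr had 0 counts in both libraries, and Atp6v0d2, one of the 51 genes, and Ctsk belong to that list too. Its summed counts were 73644 and 117671, of which Ctsk alone held 65727 and 105082. The part of these marker differences in the lysosomal ones was not tested.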

How the data were processed

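Libraries were made from total RNA with a stranded mRNA kit, per the labels' protocols. The submitters' processing notes name Trimmomatic (a read trimmer), HISAT2 (an aligner), HTSeq (a read counter) and the build mm10. The sources used here do not name versions, settings, the strand option or the annotation. The deposited values are raw counts per Ensembl gene, 1 file for each of the 2 libraries, and 0 rows lacked a gene. GENCODE M21 supplied names, positions, exon lengths and, from each gene's longest transcript, GC content; it matched 52403 of 52550 identifiers (99.7%). Counts were scaled with TMM factors of 1.231 and 0.813 (edgeR 4.0.16, R 4.3.3); with DESeq2 1.42.0 only size factors were computed. A gene was measured at a mean of at least 1 CPM. A count of 0 allows up to 3 counts, which is 0.209 and 0.180 CPM of total counts. Ratios carry exact Clopper-Pearson intervals, conditional on the summed counts (scipy 1.17.1). Adjusted ratios are residuals of splines with 4 degrees of freedom over all measured genes. Copies were sought with blastn 2.17.0. The calculations were tested on simulated data.

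All 51 genes are named; from each other pathway list up to 3 genes in each direction are named among those at least 2-fold different, ranked by the interval bound nearest 1, and defining markers where they bear on a result. The members, lists and alternatives were chosen with earlier results of these data known. Other scalings, filters, thresholds and denominators were tried as alternatives.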

Additional observations from a re-analysis of the deposited data

How the results depend on the processing

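With 1 library per culture method, neither replicate spread nor any leave-one-out value exists. No paired analysis was possible because each culture method has 1 library and no test was run. The number of genes at least 2-fold higher was 6 under total counts, 6 under reference gene scaling and 7 after adjustment for expression, exon length and GC content, and with other thresholds it was 33 at 1.5-fold and 1 at 4-fold. The number lower was 0 at 4-fold and 0 after adjustment for GC content, for GC content and exon length, and for all 3 properties. The median log2 ratio relative to all genes was 1.01 without the filter on low counts, 0.71 after adjustment for GC content, 0.71 for GC content and exon length and 0.21 for all 3. With protein-coding counts as denominator the genes held 1.96% and 2.77% of counts. Of genes called at 2-fold, Atp6ap2 changed sign with GC content removed, at 0.0038. With all 3 properties removed Hexa (-0.54), Ctsz (-0.37), Naglu (-0.32), Psap (-0.25), Atp6v1f (-0.17) and Cd68 (-0.11) did. The causes were not tested. Adjustment for GC content and exon length, and the adding of counts of copies, were chosen after seeing the data. Counting depth limits Ctsc, Ctsh, Tfeb and Atp6v0c most, with 125 to 305 counts in the 2D library.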
